A study of Drosophila melanogaster with 2 samples.

Results

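Of the 1421 peaks of the Ham-eGFP fusion protein on the main chromosome arms of *Drosophila melanogaster*, 404 (28.4%, 95% Wilson interval 26.1% to 30.8%) had their summit at a promoter without a head-to-head gene pair, here called a single-gene promoter. A peak was taken if the distance of its summit from an annotated start site was 500 bp or less, and was left out where a minus-strand start site of 1 gene and, at a higher coordinate, a plus-strand start site of another gene both lay within 1 kb of the summit. Promoters with such pairs are called divergent promoters below. The 404 peaks were 55.0% of the 735 promoter peaks. The remaining promoter peaks were 331 at divergent promoters, and 686 summits lay off promoters. All these peaks had passed the authors' threshold, and the choice among them used only positions, not peak heights. The data are chromatin immunoprecipitation and sequencing of whole embryos collected from 0 to 24 hours. The transgenic ham-GFP strain makes Ham joined to eGFP, and the fusion protein was pulled down with an antibody against GFP. The 2 biological replicates form 1 group, so there was no genotype, treatment or stage to compare, and the control experiment that the labels name as possible was not used here. Whole embryos of all stages were pooled, so a peak cannot be assigned to a cell type or stage.

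Ham (hamlet) is a zinc finger protein with a PR domain, related to PRDM16 and MECOM of mammals. It is known for its part in the fates of sensory organ cells and olfactory neurons and in the dendrite form of neurons of the embryonic peripheral nervous system. A promoter is the stretch around a start site where RNA polymerase II is recruited. Core words such as the TATA box, the initiator or the DNA replication-related element are found at defined places within it. In a divergent pair both genes share the upstream side. A single-gene promoter has no such pair by the rule above, though other genes may still overlap its upstream side.

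The values are the authors' own signal values, which measure peak height without a stated unit. The pooled list holds both replicates together. Nothing in the sources says that replicate 1 and replicate 2 share a scale, so heights are compared within a list only. Over the whole genome the pooled thresholded list had 1495 peaks, replicate 1 had 516 and replicate 2 had 1050, and a stricter list that the authors call conservative had 771. The depth of the libraries is unknown. Peaks and sequence windows are not replicates of embryos, so the tests below describe these lists.

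The bases at the highest peaks were mostly A and T. The 101 bp windows centred on 6 of the highest summits shared by both replicates are printed along the strand of the gene (RefSeq Release 6, the assembly behind dm6), with unbroken runs of 6 or more A and T bases in capitals.
CG14100 (chr3L:19590566-19590666, minus strand): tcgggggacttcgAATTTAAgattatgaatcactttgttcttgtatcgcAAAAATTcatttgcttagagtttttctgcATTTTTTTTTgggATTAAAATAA
ph-p (chrX:2137302-2137402, minus strand): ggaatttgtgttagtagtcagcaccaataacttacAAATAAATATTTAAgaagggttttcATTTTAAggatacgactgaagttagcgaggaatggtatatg
lncRNA:CR44619 (chrX:12751359-12751459, plus strand): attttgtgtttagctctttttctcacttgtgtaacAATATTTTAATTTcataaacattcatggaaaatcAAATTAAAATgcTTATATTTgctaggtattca
CG31145 (chr3R:23669779-23669879, minus strand): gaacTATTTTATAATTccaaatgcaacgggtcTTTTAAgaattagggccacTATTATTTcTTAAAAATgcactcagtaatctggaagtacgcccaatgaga
TRAM (chrX:935289-935389, plus strand): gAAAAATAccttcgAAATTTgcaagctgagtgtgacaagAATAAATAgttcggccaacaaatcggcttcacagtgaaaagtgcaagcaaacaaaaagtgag
gish (chr3R:16280680-16280780, plus strand): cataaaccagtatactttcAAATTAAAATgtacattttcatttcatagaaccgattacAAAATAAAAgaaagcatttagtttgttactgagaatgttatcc
Of these 6 windows, the share of A and T was between 61.4% at TRAM and 76.2% at lncRNA:CR44619. The mean was 52.1% ± 9.44 (SD, n = 15682) at single-gene promoter regions that were not called. It was 60.9% ± 11.1 (SD, n = 12543) in windows centred 150 bp upstream of all single-gene protein-coding start sites, close to the share at TRAM.

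Candidate regions at single-gene promoters were called as peaks more often than those off promoters and less often than those at divergent promoters. The authors' ranked list of candidates, before their threshold, is the background for this comparison, and over all main arms 0.965% of 147231 candidate regions passed. Among candidates at single-gene promoters, 404 of 16086 (2.51%, 95% Wilson interval 2.28% to 2.76%) passed. At divergent promoters 331 of 5123 (6.46%, 5.82% to 7.17%) passed, an odds ratio of 0.373 for single-gene against divergent promoters (two-sided Fisher's exact test, Benjamini-Hochberg adjusted p = 2.13e-36). Off promoters 686 of 126022 (0.544%, 0.505% to 0.587%) passed, an odds ratio of 4.71 (Fisher's exact test, adjusted p = 4.46e-109). Both directions and calls held in each replicate's own list.

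Summits at single-gene promoters lay upstream of the start site. Of the 404 peaks, 315 (78.0%) had their summit on the upstream side, against 6566 of 15682 regions not called (41.9%), an odds ratio of 4.91 (Fisher's exact test, adjusted p = 5.82e-48). The median summit was at -150 bp (quartiles -234 and -37), against 70 bp (quartiles -169 and 284) for regions not called. The busiest stretch, from -200 to -101 bp, held 121 summits (30.0%), against 8.54% of regions not called. Between 100 and 300 bp upstream lay 194 summits (48.0%), against 2588 of the regions not called (16.5%). The share within 100 bp of the start site, on either side, was 88 of 404 (21.8%), against 3510 of 15682 (22.4%), and that difference did not pass (odds ratio 0.966, adjusted p = 0.809, Fisher's exact test). In replicate 1's own list the odds ratio of lying within 100 bp was 0.421 (exact test, adjusted p = 0.00100), and in replicate 2's own list it was 1.11 (adjusted p = 0.388). The upstream shift stood in both, with odds ratios of 11.8 in replicate 1's list and 6.14 in replicate 2's.

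**Figure D1:**
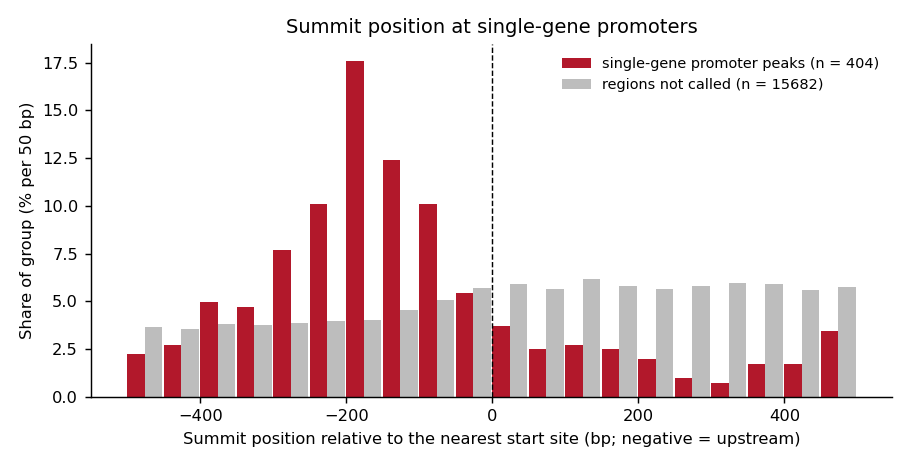
Position of the summit relative to the nearest start site, in bp along the gene strand with upstream negative, as the share of each group per 50 bp. Red bars are the 404 single-gene promoter peaks and grey bars the 15682 single-gene promoter regions not called. The red bars stand highest between 100 and 200 bp upstream, and the grey bars have no such high there. Between 100 and 300 bp upstream lie 48.0% of the peaks.

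The highest single-gene promoter peak was at CG14100, on 3L from 19590487 to 19590745, with its summit at -92 bp and a pooled signal value of 1000.5. Replicate 1 had 301 there and replicate 2 had 709. This peak stood well above the second in all 3 lists. The second, at ph-p, which encodes a subunit of Polycomb repressive complex PRC1, had a pooled value of 629.5, with 212 in replicate 1 and 417 in replicate 2. It lay in an intron of ph-p, on X from 2137246 to 2137470, and at -497 bp from an inner start site of the gene it was a member by only a few bases. A second ph-p peak, of 251 pooled, 84.9 in replicate 1 and 166 in replicate 2, had its summit at 436 bp from another start site. The gene has a tandem copy, ph-d, and the treatment of reads that match both copies is not known from the labels. The third peak, at the long non-coding RNA lncRNA:CR44619 on X, had 629 pooled, 228 in replicate 1 and 413 in replicate 2, and its summit, at -458 bp, lay in an exon of lncRNA:Vinr.

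The next peaks were at genes of varied function. Fkbp14, for a prolyl isomerase of the FK506-binding family, had 493 pooled, 143 in replicate 1 and 344 in replicate 2. At px (plexus), a gene of wing vein patterning, the values were 469, 129 and 337 in the same order of lists. CG31145 had 443, 144 and 288. TRAM, whose protein assists translocation into the endoplasmic reticulum, had 441, 149 and 283. The casein kinase gene gish followed with 425, 129 and 288, and GstE13, a glutathione S-transferase gene, with 423, 130.4 and 298. These 6 peaks were close to each other in height, within 423 to 493 pooled. CG18549 (421), CG1888 (420.5) and CG1635 (403) came next, then MFS10 (379.9), a transporter gene.

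The rest of the first 20 were lower. Sox14, a transcription factor gene needed for dendrite pruning of sensory neurons at metamorphosis, had 356 pooled, 109.8 in replicate 1 and 237 in replicate 2, at -239 bp. Alg3, for a mannosyltransferase of N-glycosylation, had 354. Then came amon, for a prohormone convertase, with 348 pooled, 102 in replicate 1 and 241 in replicate 2, at -207 bp. Tina-1 also had 348 and CG18622 had 339.9. Atf3, a bZIP transcription factor gene, had 336 pooled and 201 in replicate 2, and no candidate region of replicate 1 held its summit, although a thresholded peak of replicate 1 overlapped it. The Tudor domain gene papi, of the piRNA pathway, closed the 20 with 316 pooled, 91.3 in replicate 1 and 213 in replicate 2. Of the 20 summits, 18 were upstream, 12 lay 100 to 300 bp upstream, 17 had at least 60% A and T, and none was within 50 bp of its start site. These 20 were chosen by height among the peaks supported by both replicates, so these counts are a description. Gapdh2 (364 pooled, 267 in replicate 2), a gene of glycolysis, and lncRNA:CR44339 (345 pooled, 275 in replicate 2) were as high but overlapped a thresholded peak of replicate 2 only, had no candidate region of replicate 1 at their summit and were not in the conservative list.

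**Figure D2:**
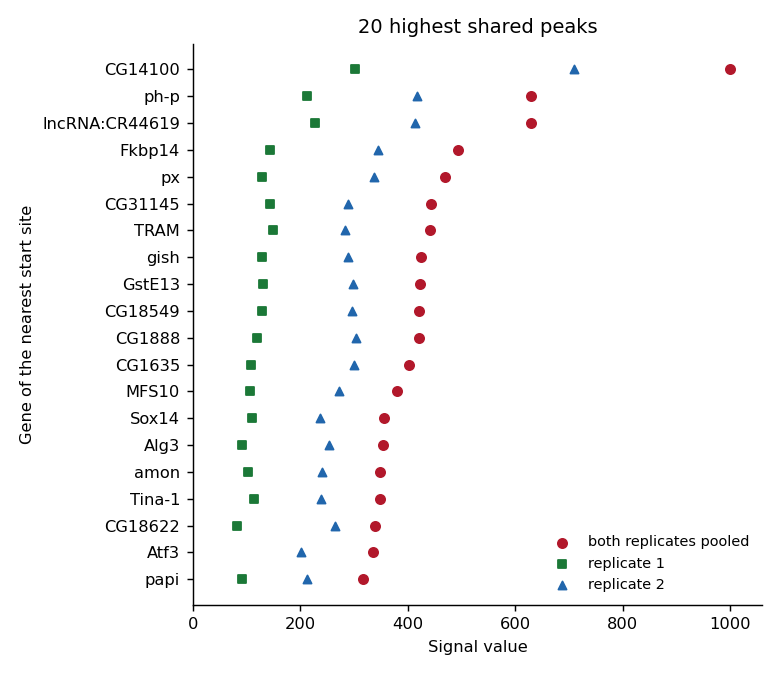
Signal value (horizontal axis, no unit stated by the authors) of the 20 highest single-gene promoter peaks supported by thresholded peaks of both replicates, with the gene of the nearest start site on the vertical axis. Circles are the pooled value, squares replicate 1 and triangles replicate 2; CG14100 stands apart at 1000.5, and replicate 2 lies above replicate 1 at every gene with both values, on scales that are not known to be shared (Atf3 has no replicate 1 value).

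Most single-gene promoter peaks were found by replicate 2, and few by replicate 1 alone. Replicate 2 also had the longer thresholded list over the whole genome, 1050 peaks against 516. Shares found by a single replicate are not given here for other peak classes, so they do not set this class apart. A thresholded peak of both replicates overlapped 116 of the 404 (28.7%), one of replicate 2 only overlapped 172 (42.6%), and one of replicate 1 only overlapped 14 (3.47%). The other 102 (25.2%) overlapped none of either replicate's own thresholded peaks and were called in the pooled list alone. Candidate regions were common all the same: 358 summits lay in one of replicate 1, 391 in one of replicate 2, 351 in both and 6 in neither. Across the 351, the heights in the 2 replicates had a Spearman correlation of 0.571, and a Pearson correlation of 0.676 after log2 transformation. The pooled values were made from both libraries and the peaks were called on them, so this describes the peaks called. Heights had a median of 31.9 (2.83 to 301) in replicate 1 and 72.4 (2.91 to 709) in replicate 2.

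**Figure D3:**
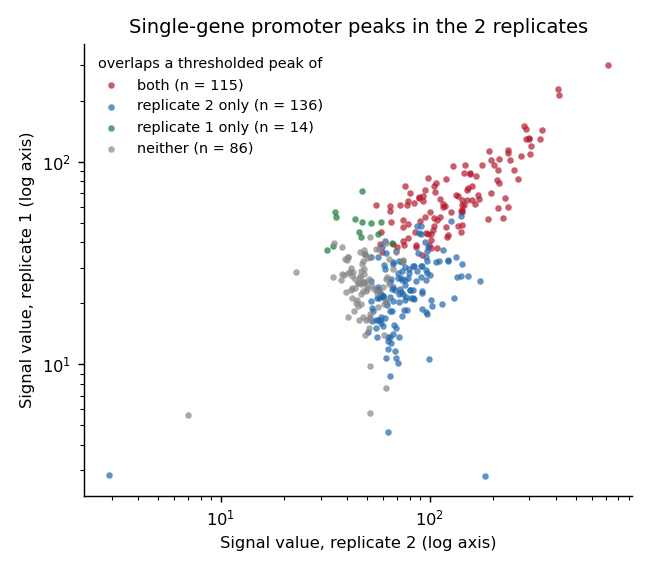
Height of the 351 single-gene promoter peaks with a candidate region in both replicates: signal value in replicate 2 (horizontal) against replicate 1 (vertical), both on log axes. Colours give which replicate's thresholded list the peak overlaps; peaks of both lie at the upper right, and those of neither gather at the low end of both axes (Spearman correlation 0.571).

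Peak height went along with position, base composition and support. The members were split into 4 bins of 101 by pooled signal value. From the highest bin (148 to 1000.5) through the next (99.3 to 147 and then 76.8 to 98.7) to the lowest (2.04 to 76.8), the share with an upstream summit was 91.1%, 84.2%, 76.2% and 60.4%. The share 100 to 300 bp upstream was 65.3%, 52.5%, 43.6% and 30.7% in the same order. Mean A and T was 69.0% ± 9.93, 66.2% ± 9.68, 62.7% ± 11.4 and 54.6% ± 11.8 (SD, n = 101 each). Peaks of both replicates overlapped 83, 30, 3 and 0 of the 101, and the conservative list held 95, 74, 35 and 6. Each of these shares, the means of A and T and both counts fell from bin to bin. The pooled values and the lists used for support come from the same 2 libraries. The fall of support with height is therefore not a separate result. Of the 404, 12 had a signal value under 10, and all 12 overlapped a higher pooled peak.

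Single-gene promoter peaks were higher than off-promoter peaks, and a difference from divergent promoters did not pass. The median signal value was 99.0 (quartiles 76.8 and 147) at single-gene promoters, 106 (81.2 and 161) at divergent promoters and 82.4 (70.2 and 111) off promoters. Values above 91.6, the median of all main-arm peaks, were held by 232 of 404 single-gene promoter peaks (57.4%), against 269 of 686 off promoters (39.2%), an odds ratio of 2.09 (Fisher's exact test, adjusted p = 5.19e-08). Against 209 of 331 at divergent promoters (63.1%) the odds ratio was 0.787 (adjusted p = 0.130, Fisher's exact test). Without replicate 2 (in replicate 1's own list) the comparison with divergent promoters turned to an odds ratio of 1.19 (exact test, adjusted p = 0.646).

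**Figure D4:**
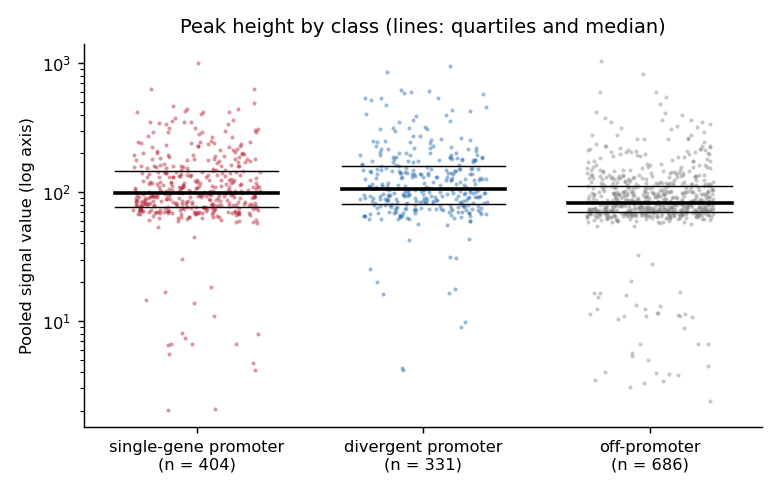
Pooled signal value on a log axis for the 404 single-gene promoter, 331 divergent promoter and 686 off-promoter peaks, each point 1 peak; the thick line is the median and the thin lines the quartiles. The medians are 99.0, 106 and 82.4, and the 3 classes overlap over most of their range.

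Replicate support stood between that of the other classes. Both replicates supported 116 of 404 single-gene promoter peaks (28.7%), against 118 of 686 off promoters (17.2%), an odds ratio of 1.94 (Fisher's exact test, adjusted p = 4.91e-05). At divergent promoters it was 126 of 331 (38.1%), an odds ratio of 0.655 (adjusted p = 0.0122, Fisher's exact test). The conservative list held 210 of the 404 (52.0%), against 209 of 331 at divergent promoters (63.1%, odds ratio 0.632, adjusted p = 0.00545) and 296 of 686 off promoters (43.1%, odds ratio 1.43, adjusted p = 0.00902; Fisher's exact test for both). In a replicate's own list, support was counted as overlap with a thresholded peak of the other replicate. By that measure the lower support than at divergent promoters was not called. The odds ratios were 0.656 in replicate 1's list (exact test, adjusted p = 0.502) and 0.829 in replicate 2's list (adjusted p = 0.443).

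Base composition at the summit set single-gene promoter peaks apart from regions that were not called. A window of 101 bp around the summit had at least 60% A and T at 264 of 404 peaks (65.3%), against 3218 of 15682 regions not called (20.5%), an odds ratio of 7.30 (Fisher's exact test, p = 1.11e-81). Mean A and T was 63.1% ± 12.0 (SD, n = 404) at the peaks, against 52.1% ± 9.44 (SD, n = 15682). Bases differ along a promoter, so the comparison was also made among summits 100 to 300 bp upstream, where the mean was 67.0% ± 10.3 (SD, n = 194) at peaks and 54.9% ± 10.1 (SD, n = 2588) at regions not called (odds ratio of reaching 60% 8.05, Fisher's exact test, p = 4.49e-39). Regions not called were poorer in A and T than promoters at large. Windows centred 150 bp upstream of all 12543 single-gene protein-coding start sites had a mean of 60.9% ± 11.1, and 54.2% of them reached 60%, against 151 of the 194 upstream peaks (77.8%), which leaves an odds ratio of 2.97 (Fisher's exact test, p = 1.62e-11). These comparisons were added after the values were seen.

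The other peak classes differed less. At least 60% A and T was found at 244 of 331 divergent promoter peaks (73.7%), against which single-gene promoter peaks had an odds ratio of 0.672 (adjusted p = 0.0184), and at 358 of 686 off-promoter peaks (52.2%), with an odds ratio of 1.73 (adjusted p = 5.82e-05; Fisher's exact test for both). Neither was called in both replicates' own lists. Against divergent promoters the odds ratio was 1.17 without replicate 2 and 0.829 without replicate 1 (exact test, adjusted p = 0.727 and 0.443), and against off-promoter peaks it was 3.85 without replicate 2 and 1.02 without replicate 1 (adjusted p = 2.33e-05 and 0.937).

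The A and T share was highest at the summit itself. In windows of 21 bp it was 64.8% at the summits of single-gene promoter peaks and 57.5% on average 400 to 500 bp away. Divergent promoter peaks had their highest share, 68.8%, 50 bp before the summit, with 52.8% at 400 to 500 bp. Off-promoter peaks had 59.3% at the summit, 54.0% and 53.8% at 100 bp before and after it, and 58.6% at 400 to 500 bp, so a local high at the summit was seen off promoters as well. Regions not called were at 51.9% at the summit and 57.7% away from it. Lined up by start site, the 388 start sites nearest to a peak were richest in A and T at -200 bp (65.3%), while the 12543 start sites of all single-gene protein-coding promoters reached 61.8%, at -310 bp. At the start site itself those nearest to a peak had 52.7%, against 56.0% for all. The 388 include start sites of non-coding genes, which the 12543 do not.

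**Figure D5:**
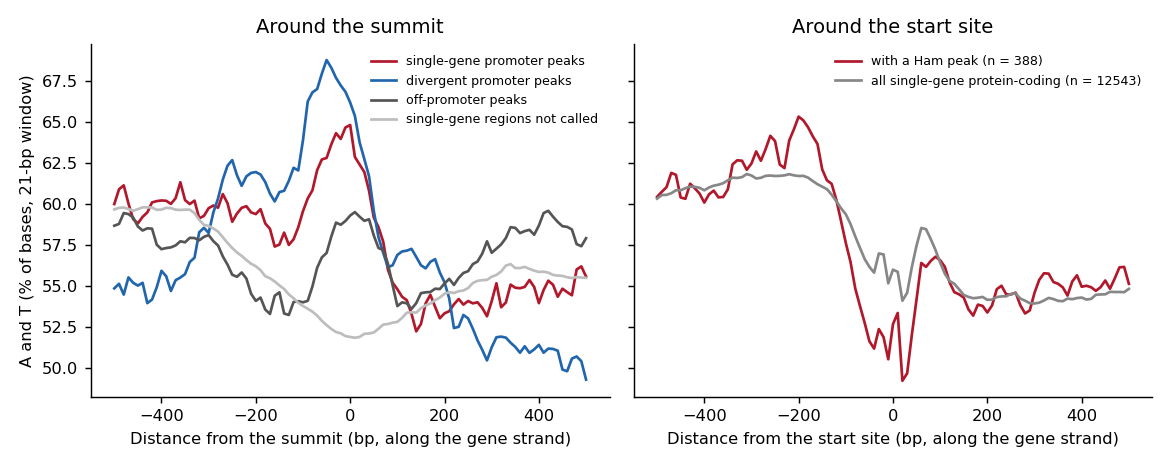
Share of A and T in 21-bp windows (vertical axis, % of bases) by distance in bp along the gene strand from the summit (left) and from the start site (right). Left, single-gene promoter peaks (red) reach 64.8% at the summit, where single-gene regions not called (light grey) have 51.9%. Right, start sites with a Ham peak (red, 388, non-coding genes included) reach 65.3% at -200 bp. Around the start itself they lie under all single-gene protein-coding start sites (grey, 12543).

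Of 13 chosen words, 5 were more frequent at single-gene promoter summits than at regions not called and 2 were less frequent (Fisher's exact test, Benjamini-Hochberg adjustment over 13 words, both strands, windows of 101 bp). The TATA box core TATAAA was in 84 of 404 windows (20.8%), against 1134 of 15682 (7.23%), an odds ratio of 3.37 (exact test, adjusted p = 9.90e-17). It was in 30 windows of the highest bin by signal value and in 9 of the lowest. The highest peaks with it were those of Fkbp14, CG31145 and CG18549, with summits at -99, -170 and -141 bp. The windows of these peaks ended upstream of the start site. TATAAA was counted anywhere in a window, and its place relative to the start site was not measured. These counts are therefore of the word, not of TATA boxes in their usual place. GTATTTT, part of a core promoter word known as motif 6, was in 22 windows (5.45%, against 2.37%, odds ratio 2.38, exact test, adjusted p = 0.00194), the highest at TRAM, papi and Hpf1, which encodes a cofactor of ADP-ribosylation. The GATA factor word GATAA was in 88 windows (21.8%, against 15.8%, odds ratio 1.48, exact test, adjusted p = 0.00627), led by px, gish and Atf3. These 3 words are themselves rich in A and T.

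A pair of rarer core promoter words also passed, on few windows. The DNA replication-related element TATCGATA, bound by DREF, was in 5 windows, against 57 of the regions not called (1.24% against 0.363%, odds ratio 3.44, exact test, adjusted p = 0.0364). The motif 1 word GGTCACACT, bound by M1BP, was in 4 windows, against 34 (0.990% against 0.217%, odds ratio 4.60, exact test, adjusted p = 0.0320). The highest peak with TATCGATA was at Alg3 (354 pooled, -58 bp) and the third at CG1827 (152, -174 bp), both supported by both replicates. The windows of the other 3 are printed, at the elongation factor gene eEF1gamma, the ribosomal protein gene RpS10b and JIL-1, which encodes a histone H3 kinase, with the word in capitals (RefSeq Release 6, along the gene strand).
eEF1gamma (chr3R:29220111-29220211, plus strand): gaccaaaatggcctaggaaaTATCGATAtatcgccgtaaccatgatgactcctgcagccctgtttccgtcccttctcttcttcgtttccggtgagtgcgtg
RpS10b (chrX:19597940-19598040, plus strand): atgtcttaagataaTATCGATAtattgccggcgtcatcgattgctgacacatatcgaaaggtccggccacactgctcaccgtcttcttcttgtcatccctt
JIL-1 (chr3L:11093152-11093252, minus strand): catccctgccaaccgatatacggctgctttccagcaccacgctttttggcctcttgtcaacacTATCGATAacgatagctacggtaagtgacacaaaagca
Their pooled values were 201, 125 and 83.2, and their summits lay at -11, -41 and -9 bp. The 4 peaks with GGTCACACT lay within 36 bp of the start site. That of RpS23 (73.3 pooled) was at -2 bp, and the windows of the other 3 are printed, at Mer, which encodes the tumour suppressor Merlin, at the splicing factor gene Rnp4F and at the ribosomal protein gene RpL27A.
Mer (chrX:19693414-19693514, minus strand): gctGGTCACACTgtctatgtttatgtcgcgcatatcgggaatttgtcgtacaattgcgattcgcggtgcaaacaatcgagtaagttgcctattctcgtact
Rnp4F (chrX:5322641-5322741, minus strand): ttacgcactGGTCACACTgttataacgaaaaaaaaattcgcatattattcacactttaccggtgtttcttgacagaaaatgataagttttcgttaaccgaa
RpL27A (chr2L:4458334-4458434, minus strand): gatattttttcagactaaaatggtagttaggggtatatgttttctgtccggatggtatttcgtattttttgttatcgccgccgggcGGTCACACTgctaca
Their pooled values were 98.7, 74.4 and 63.5, with summits at 36, 5 and -20 bp. None of the 6 peaks printed was supported by both replicates. Their windows had A and T shares of 49.5% to 66.3% and were below 60% A and T apart from Rnp4F. In replicate 1's own list GGTCACACT was in no window, and in replicate 2's own list its odds ratio was 2.61 (exact test, adjusted p = 0.190). TATCGATA had an odds ratio of 2.69 without replicate 2 (exact test, adjusted p = 0.461) and 4.10 without replicate 1 (adjusted p = 0.0161).

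The words found less often were CAGCTG, an E-box, and CAGGTA, a word of the early embryonic activator Zelda. CAGCTG was in 7 windows (1.73%, against 6.29%, odds ratio 0.263, exact test, adjusted p = 1.49e-04), the highest at CG3009, Hpf1 and CG9399. CAGGTA was in 2 windows, those of Lpin, for a phosphatidate phosphatase, and ben, for a ubiquitin-conjugating enzyme (0.495%, against 2.63%, odds ratio 0.184, exact test, adjusted p = 0.00928). Neither passed in either replicate's own list. CAGCTG had odds ratios of 0.357 without replicate 2 (exact test, adjusted p = 0.123) and 0.625 without replicate 1 (adjusted p = 0.190). CAGGTA had 0.254 without replicate 2 (exact test, adjusted p = 0.307) and 0.340 without replicate 1 (adjusted p = 0.135).

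The words bound in mammals by MECOM were rare. GACAAGATA, which its first group of zinc fingers binds, was in 1 window, against 4 of the regions not called (exact test, adjusted p = 0.173). GAAGATGAG, of its second group, was in 0 of 404 windows, which allows a share of up to 0.942% by the Wilson interval, against 17 of 15682 (exact test, adjusted p = 1.00). By the same exact test, the initiator core TCAGT (57 windows, 14.1%, against 17.9%, adjusted p = 0.0904), CTTTTC, part of the initiator of ribosomal protein genes (37, 9.16%, against 8.93%, adjusted p = 1.00), the GAGA factor word GAGAG (52, 12.9%, against 14.0%, adjusted p = 0.793) and the AP-1 word TGACTCA (3, 0.743%, against 0.765%, adjusted p = 1.00) did not pass. The words were also put in a logistic model with the A and T share of the window and the distance from the start site. GAAGATGAG, found in 0 windows of peaks, was not fitted. Of the words fitted, 0 passed in either direction, and the odds ratio of TATAAA was 1.23.

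Peaks 100 to 300 bp upstream were also set against windows 150 bp upstream of all single-gene protein-coding start sites. The peaks held TATAAA in 46 of 194 windows (23.7%), against 1996 of 12543 (15.9%), an odds ratio of 1.64 (Fisher's exact test, adjusted p = 0.0238). The other 4 words that were higher above did not pass there. No peak with GGTCACACT lay in this range, and of those with TATCGATA only that of CG1827 did. The comparison therefore cannot decide on these words. GAGAG was lower there, in 18 of 194 (9.28%), against 2117 of 12543 (16.9%, odds ratio 0.504, exact test, adjusted p = 0.0230). Over all 12543 windows TATCGATA was in 0.662%, GGTCACACT in 0.239%, CAGCTG in 4.73%, GTATTTT in 4.36%, CAGGTA in 2.41% and GATAA in 22.2%. Set beside divergent promoter peaks, GAGAG was more frequent at single-gene promoter summits (52 of 404, 12.9%, against 21 of 331, 6.34%, odds ratio 2.18) and CAGCTG less frequent (7 of 404, against 18 of 331, odds ratio 0.307; Fisher's exact test, adjusted p = 0.0466 for both). TATAAA did not pass in that comparison (20.8% against 23.9%, exact test, adjusted p = 0.638).

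Over all words of 6 bases, with reverse complements joined, 239 (11.5%) were more frequent at single-gene promoter summits than at regions not called and 273 (13.1%) less frequent (Fisher's exact test, adjusted p under 0.05). Among those higher were all 36 words without a G or C, and 195 of the 239 had at most 1 G or C. Of the 273 lower words, 272 had 3 or more. TTAAAA stood first, in 30.4% of windows against 9.11% (odds ratio 4.37, exact test, adjusted p = 3.01e-29), then ATTTTA (29.5% against 8.82%) and AATATA (25.2% against 6.80%). Among higher words with 2 or more G or C, TAAGCA had the smallest p (10.1% against 4.05%, exact test, adjusted p = 5.46e-06). CCAGGA led the lower words, at 0.495% against 6.34% (exact test, adjusted p = 1.57e-07). Among summits 100 to 300 bp upstream, 120 words were higher, of which 117 were also higher over all summits and 35 had no G or C. Of the 59 lower there, 50 were also lower over all. Against the windows at all single-gene start sites 16 words were higher and 0 lower. In replicate 1's own list 166 words were higher and 81 lower, and in replicate 2's own list 233 and 207.

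The genes beside these peaks were mostly protein-coding. Their start sites were nearest to 364 of 404 peaks (90.1%), against 12816 of 15682 regions not called (81.7%, odds ratio 2.04, Fisher's exact test, adjusted p = 2.18e-05). Long non-coding RNA genes were nearest to 32 (7.92%, against 11.7%, odds ratio 0.651, exact test, adjusted p = 0.0240), whose peaks had a median of 97.6 (8.10 to 629). Without replicate 2 that difference did not pass (odds ratio 0.674, exact test, adjusted p = 0.319). No tRNA start site was nearest to any of the 404 (0 of 404, against 133 of 15682, exact test, adjusted p = 0.0841), and the other types, such as antisense, small nuclear and small nucleolar RNA genes, had 8 (1.98%, against 5.75%, odds ratio 0.331, adjusted p = 8.45e-04).

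By annotation, 167 summits (41.3%) lay outside any gene, 138 (34.2%) in an intron and 99 (24.5%) in an exon. The start site was the most upstream of its gene at 257 peaks and an inner one at 147. In 358 cases only 1 gene had a start site within 1 kb of the summit. In the other 46 there were more, up to 6, without a divergent pair, so for these the name single-gene holds only by the rule. The arms 3R, 2L, X, 3L and 2R held 94, 83, 81, 78 and 68 peaks, and chromosomes 4 and Y held none. Differences from regions not called did not pass for any of the 7 arms (Fisher's exact test, smallest adjusted p = 0.471, on X).

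The 404 peaks belonged to 377 genes, of which 351 had 1 peak and 25 had 2. Ptpmeg2, for a tyrosine phosphatase, was the one gene with 3, each at a different start site on X. Its highest had 147 pooled, 51.4 in replicate 1 and 108 in replicate 2, at -207 bp. The next had 123, 27.0 and 91.1 in the same order, at -198 bp, and the third had 116, 50.2 and 65.2, at -159 bp. All 3 summits lay upstream, in introns.

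Of the 9244 protein-coding genes with a single-gene promoter, 338 (3.66%) had such a peak. In replicate 1's own list the share was 1.29% and in replicate 2's 2.97%. Gene lists are described by their counts beside this share, with no test. Among the 86 cytoplasmic ribosomal protein genes, 36 had a single-gene promoter and 8 of these (22.2%) had a peak, and a further 21 genes of the list were nearest to a divergent promoter peak. RpL23A had 212 pooled, 61.3 in replicate 1 and 145 in replicate 2. RpL30 had 158, 21.3 and 130.2. RpS10b had 125 pooled and 102 in replicate 2, and no candidate region of replicate 1 held its summit. The others were RpL24 (103), RpS4 (96.0), RpS23 (73.3), RpL37A (70.8) and RpL27A (63.5). The highest summit of each of the 8 genes lay between -91 and 0 bp, nearer to the start site than the median of -150 bp over all members. RpL23A was the one of the 8 with a peak in both replicates, and in replicate 1's own list 1 gene of this list had a peak, against 8 in replicate 2's.

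The other lists of housekeeping genes had few or none. Among translation factors, 2 of 28 genes with a single-gene promoter (7.14%) had a peak. They were eEF1gamma (201 pooled, 25.8 in replicate 1 and 174 in replicate 2) and eEF1alpha1 (77.7, 26.3 and 44.0). Of the general transcription machinery, 1 of 27 (3.70%) had one, Polr2F, which encodes a subunit of RNA polymerase II (84.9, 13.7 and 71.3). None was found at 15 mitochondrial ribosomal protein genes, 11 aminoacyl-tRNA synthetase genes, 43 genes of oxidative phosphorylation, 23 of the proteasome, 4 of splicing and 27 of DNA replication and the cell cycle. The background was 3.66%, and whether these lists differ from it, singly or together, was not tested.

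Chromatin genes had 4 peaks at 3 of 18 Polycomb, trithorax and corepressor genes with a single-gene promoter (16.7%). The share over all such genes was 3.66%, and the difference was not tested. Beside ph-p these were gro, for the corepressor Groucho (196 pooled, 78.4 in replicate 1 and 107 in replicate 2), and Trl, for the GAGA factor (145, 48.3 and 87.3). Of 11 architectural and promoter-binding factor genes, row, a zinc finger gene, had one (9.09% of genes, with values of 132, 32.5 and 97.0). The summits of gro and row were upstream and that of Trl was downstream of the start site.

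Genes of the nervous system, where Ham is known to act, had peaks in both the highest and the lowest of the 4 bins by height. Of 36 sensory organ genes with a single-gene promoter, 3 had a peak (8.33%), against 3.66% over all genes with such a promoter. These small counts were not tested, and 1 of the 3 is ham, the tagged gene. The neuronal RNA-binding protein gene elav had 274 pooled, 95.7 in replicate 1 and 177 in replicate 2, at -240 bp. The gene numb, for the inhibitor of Notch that is passed to 1 daughter cell, had 157, 67.2 and 88.9 at -193 bp, and ham itself was the third. Among 34 neuroblast genes dlg1, a cell polarity scaffold gene, had one (2.94% of genes, with values of 115, 30.6 and 91.1). Among 35 genes of neuronal function, 8.57% had a peak. They were elav, the axon guidance gene trio (74.3, 38.4 and 34.5) and the potassium channel gene Shab (65.0, 18.4 and 43.5). Shab had a second peak, of 5.51 pooled. Both elav and numb had a thresholded peak in each replicate. The other 4 of these genes did not.

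Of 21 Notch pathway genes with a single-gene promoter, gro, numb and mib1, for a ubiquitin ligase of the Notch ligands, had a peak (14.3%, against 3.66% over all such genes, not tested). That of mib1 was low (61.3, 20.1 and 44.4). In the list of EGFR, Wnt and Dpp pathway genes, 2 of the 32 with a single-gene promoter had one (6.25%). They were sgg, for the GSK3 kinase of the Wnt pathway (179.7, 62.1 and 116), and spi, for the main EGFR ligand (139, 61.0 and 78.0). Both had thresholded peaks in each replicate, at -211 and -195 bp.

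The peak at ham, on 2L from 18771763 to 18772098, had its summit at -173 bp. Its pooled signal value was 69.3, with 27.8 in replicate 1 and 37.8 in replicate 2, and it overlapped no thresholded peak of either replicate. It belonged to the lowest of the 4 bins by height. The labels describe the strain's insertion as targeting ham, and its part in this peak was not tested. The window around the summit is shown because ham is the tagged gene, along its strand and with A and T runs of 6 or more in capitals.
ham (chr2L:18771881-18771981, minus strand): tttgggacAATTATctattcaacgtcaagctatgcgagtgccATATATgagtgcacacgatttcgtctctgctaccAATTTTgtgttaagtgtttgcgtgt
This window had 59.4% A and T, under the limit of 60% used above.

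Near the limit of 500 bp, the 3 members farthest from a start site were at Moe, which encodes moesin (-499 bp, 80.3 pooled), CG15247 (497 bp, 68.6) and ph-p (-497 bp, 629.5). The nearest summits outside it were at Lmpt (-501 bp, 68.3), CG17896 (-504 bp, 363) and CAP (-506 bp, 87.0). High peaks lay on both sides of this limit.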

How the data were processed

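The signal values are the authors' peak heights, deposited in lists on dm6 per the labels, with ranks set by the irreproducible discovery rate according to the file descriptions. Which aligner, peak caller and control were used is not given in the sources used here. Chromatin was sheared to 200 to 800 bp, per the labels. Read counts were not used, so depth is unknown, and intervals (95% Wilson) cover counting error only.

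Summits were set against Ensembl release 115 start sites without transposable element copies (24111). Regions not called are candidate regions of the pooled ranked list that overlap no pooled thresholded peak. Peaks overlapped at 1 bp or more. A summit's height in a replicate is that of the highest candidate region holding it. Shares were compared by two-sided Fisher's exact tests with Benjamini-Hochberg adjustment over 8 class comparisons, 13 chosen words, all words of 6 bases, 4 gene types, 7 arms or the pair of position or call-rate comparisons, with scipy 1.17.1 and statsmodels 0.14.6. The word test was tried on groups drawn at random from regions not called, with words planted in the group that stood for peaks. Both groups came from the same regions, so this trial does not cover the difference in A and T share. Sequences come from RefSeq Release 6, where 100.0% of 13968 genes had identical coordinates. The 16 gene lists (12 older symbols replaced, 6 entries unmatched), the words and the members were chosen with earlier results of these data known. Named genes are ham, those of the 20 highest peaks shared by both replicates, the 3 highest per list, those at the 500 bp limit, those with 3 peaks or more, and the 3 highest holders of each word that passed. The remaining ribosomal protein genes, JIL-1, Gapdh2 and lncRNA:CR44339 were named after their values were seen. Of the members, 19 overlapped a higher pooled peak, and an alternative keeps only the highest.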

Additional observations from a re-analysis of the deposited data

How the results depend on the processing

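Of 270 recomputed values for results that answer a comparison, 204 kept their direction and their side of the threshold or stayed within their spread. The candidate regions called, the upstream position of summits, the A and T share against regions not called, height and support of both replicates against off-promoter peaks, and the share of protein-coding genes kept direction and call under every alternative run for them. The alternatives with summits 100 to 300 bp upstream, with windows at all single-gene start sites and with transposable element copies kept were chosen after seeing the data. The cause of the changes listed here was not tested. Both replicates' own lists are shorter than the pooled list. Support in them means overlap with a thresholded peak of the other replicate, so it is not a check without that replicate.

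The share of main-arm peaks at single-gene promoters was 30.9% to 32.2% without 1 replicate, 19.6% with a promoter limit of 250 bp, 38.9% with 1000 bp, 33.4% with a pair limit of 500 bp and 24.3% with 2 kb. Genes with a peak were 1.96% of those with a single-gene promoter (182 genes) in the conservative list, 1.29% to 2.97% (120 to 276 genes) without 1 replicate, 2.65% at 250 bp and 4.64% at 1000 bp. Support by both replicates against divergent promoters lost its call in the conservative list (odds ratio 0.907) and at a pair limit of 2 kb (0.788). It also did so with the highest of overlapping peaks only (0.719). In the replicates' own lists, where support was overlap with the other replicate, the odds ratios were 0.656 to 0.829, not called. Presence in the conservative list lost its call against divergent promoters at 2 kb (0.788) and against off-promoter peaks at 250 bp (1.30). High signal against divergent promoters had odds ratios of 0.923 to 1.19 without 1 replicate, and passed at 1000 bp (0.693) and at a pair limit of 500 bp (0.645).

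The A and T share against divergent promoters lost its call in the conservative list (0.896), without 1 replicate (0.829 to 1.17), with the highest of overlapping peaks only (0.700), at 70% A and T (0.846) and at 100 to 300 bp upstream (0.405). Against off-promoter peaks it was 1.02 to 3.85 without 1 replicate. The odds ratio of lying within 100 bp of the start site was 0.421 to 1.11 without 1 replicate, passed in the conservative list (0.565) and at 250 bp (0.620), and lay above 1 at 1000 bp (1.45), at a pair limit of 500 bp (1.17), with protein-coding start sites only (1.01) and with transposable element copies kept (1.01). The odds ratio of lncRNA genes lost its call in the conservative list (0.746), without 1 replicate (0.508 to 0.674), at 1000 bp (0.780) and with transposable element copies kept (0.723). That of tRNA genes, 0 throughout, passed at 1000 bp and at a pair limit of 500 bp. At 1000 bp 1 arm differed.

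The chosen words higher than in regions not called numbered 3 in the conservative list, 2 to 4 without 1 replicate, 3 at 2 kb, 2 with windows of 25 bp on either side, 0 in the logistic model, and 1 both at 100 to 300 bp upstream and against all start sites; those lower numbered 0 without 1 replicate, with 25 bp and in the logistic model. The words of 6 bases higher numbered 166 to 233 without 1 replicate, 146 with 25 bp, 120 at 100 to 300 bp upstream and 16 against all start sites. Those lower numbered 81 to 207 without 1 replicate, 84 at 250 bp, 430 at 1000 bp, 40 with 25 bp, 436 with 100 bp, 59 at 100 to 300 bp upstream and 0 against all start sites.

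Single words crossed an odds ratio of 1 as well. GGTCACACT was at 0 in the conservative list, at 100 to 300 bp upstream and against all start sites, and at 0 to 2.61 without 1 replicate. GACAAGATA was at 0 in these, at 250 bp and with 25 bp, and at 0 without 1 replicate. The pooled peaks with either word had no summit 100 to 300 bp upstream. Their values there and against all start sites could therefore only be 0. TGACTCA was at 1.88 in the conservative list, 1.10 to 4.09 without 1 replicate, 1.43 at 250 bp, 1.15 at 2 kb, 1.04 with protein-coding start sites only, 1.02 with the highest peaks only and 1.92 with 25 bp. TCAGT was at 0.795 to 1.07 without 1 replicate. CTTTTC was at 0.943 at 250 bp, 0.991 with protein-coding start sites only, 0.956 with the highest peaks only, 0.915 in the logistic model and 0.927 against all start sites. GAGAG was at 1.04 with 100 bp and 1.42 in the logistic model, GATAA at 0.991 in that model, and TATCGATA at 0.778 against all start sites. Of the peaks with TATCGATA, only that of CG1827 lay 100 to 300 bp upstream, the range used there.

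No paired analysis was possible because the series has a single group of 2 replicates and no contrast between samples. The depth of the libraries is unknown, so no limit from it can be given, and words found in few windows have wide intervals.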
